A study of Homo sapiens
Mus musculus and Mus musculus and Homo sapiens with 16 samples.

Results

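The genes described are 10 transcription factors and coactivators that set and change B cell identity: PAX5, EBF1, BCL6, IRF4, PRDM1, XBP1, SPIB, POU2AF1, BACH2 and SOX11. They were chosen by symbol from a count table of 58051 human genes, each symbol had 1 row there, and all 10 were among the 12861 genes that passed the filter on low counts. The cells were REC-1, a human mantle cell lymphoma line, and the question was how their transcript levels depend on contact with stroma. REC-1 was sequenced in 3 culture states, each with 4 libraries. Monocultured cells (Sep) were grown without stroma, Susp cells were those that stayed in suspension when cocultured with MS-5, and Adh cells were those that had adhered to MS-5. MS-5, a stromal line from mouse bone marrow, was also sequenced alone in 4 libraries. RNA was taken after 24 h of incubation, and the labels name no drug and no genetic change for any of these groups. All REC-1 libraries come from a single line, and the Adh libraries hold RNA of both species, because adhered cells were lysed together with the stroma and the reads were assigned to human or mouse afterwards. The study describes the replicates of its expression comparisons as independent experiments. The labels do not say what a replicate number marks, but the sample codes of libraries with the same replicate number begin with the same digit.

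PAX5 and EBF1 commit progenitors to the B lineage and keep mature B cells what they are. SPIB, an ETS factor, and POU2AF1, a coactivator of octamer-binding proteins, serve B cell receptor signalling and germinal centre formation, while BCL6 and BACH2 are repressors that hold back differentiation into plasma cells. IRF4, PRDM1 (which encodes BLIMP-1) and XBP1 drive that differentiation. PRDM1 represses PAX5 and BCL6, and XBP1 expands the secretory apparatus. SOX11 is not a normal B cell factor, but is aberrantly expressed in most mantle cell lymphomas. Mantle cell lymphoma carries high cyclin D1 and retains a mature B cell identity.

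B cell identity was checked by markers, given as CPM (counts scaled to library size after TMM normalization). Over the 12 REC-1 libraries, MS4A1, which encodes CD20, was at 991 to 1374 CPM and CD79A, a signalling chain of the B cell receptor, at 910.3 to 1481 CPM. CD79B was at 445 to 889 CPM, CD74 at 688 to 939.8 CPM and CD22 at 43.3 to 69.0 CPM. CCND1, the gene of cyclin D1, was at 1135 to 2127 CPM. Summed human counts of 10 stromal genes stayed between 2.77 and 5.91 CPM, of 5 T cell genes between 3.68 and 9.44 CPM, and of 5 myeloid genes between 0.61 and 2.20 CPM. In MS-5 cells alone the mouse forms of 7 of the 10 stromal genes were counted, with Col1a1 at 1307 ± 142 CPM (SD, n = 4), whereas Dcn, Lum and Thy1 had 0 counts. Human counts per library were 9325412 to 12597891 in Sep, 15000927 to 21467832 in Susp and 7758979 to 13241751 in Adh cells. Counts of 2 were listed for 2.11 to 3.27 times as many genes as counts of 1, in 12 of 12 libraries. The study describes its counts as fragments for each gene. Whether both ends of a read pair were counted instead was not tested, and the counting error of low genes may be larger than their counts imply.

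Because the Adh libraries were mixed, the likeness of each member to its mouse orthologue bears on its value. Over windows of 25 human coding bases, 29.1% of EBF1 windows occurred unchanged in a transcript of mouse Ebf1, followed by 17.4% for PAX5 and 10.8% for SOX11. The other 7 members shared between 2.76% (SPIB) and 6.59% (POU2AF1). The longest identical stretches are printed for EBF1, BCL6 and XBP1, whose mouse orthologues the stroma expressed, and for PAX5, whose orthologue it did not. They were read from GENCODE annotation of GRCh38 (release 44), 5′ to 3′ on the coding strand, which was the minus strand for all 4, and capitals mark bases past an exon junction.
EBF1 (110 bases from exons 8 and 9, chr5:158796424-158823233, intron between): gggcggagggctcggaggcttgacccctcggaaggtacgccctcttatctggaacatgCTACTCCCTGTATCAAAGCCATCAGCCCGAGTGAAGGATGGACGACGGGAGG
PAX5 (104 bases from exons 2 and 3, chr9:37015168-37020712, intron between): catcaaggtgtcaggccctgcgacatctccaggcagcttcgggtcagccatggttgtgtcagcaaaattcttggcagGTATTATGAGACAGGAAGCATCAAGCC
BCL6 (50 bases within exon 7, chr3:187726742-187726791): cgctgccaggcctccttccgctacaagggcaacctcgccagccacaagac
XBP1 (38 bases within exon 6, chr22:28795581-28795618): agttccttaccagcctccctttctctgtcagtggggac

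In the Adh libraries, most counts of EBF1, BCL6 and XBP1 were assigned to the mouse. Summed over the 4 libraries, mouse Ebf1 had 15516 counts against 2470 of human EBF1, which made 86.3% of the counts of both species. Mouse Bcl6 had 2956 counts against 172 of human BCL6 (94.5% mouse), and mouse Xbp1 had 7645 against 1897 of human XBP1 (80.1% mouse). MS-5 cells alone expressed the same 3 genes, Ebf1 at 110 ± 4.68 CPM, Bcl6 at 27.99 ± 3.54 CPM and Xbp1 at 58.9 ± 1.02 CPM (SD, n = 4). The mouse orthologues of the other 7 members summed to 8 counts in the Adh libraries, against 79402 human counts of those members, or 0.0101%. Pax5, Spib, Pou2af1, Prdm1 and Sox11 had 0 mouse counts there. For Pax5, 0 mouse counts beside 34676 human counts allow a mouse share of up to 0.00865%, or 0.0173% if both ends of a pair were counted, and these limits cover counting error only.

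**Figure D1:**
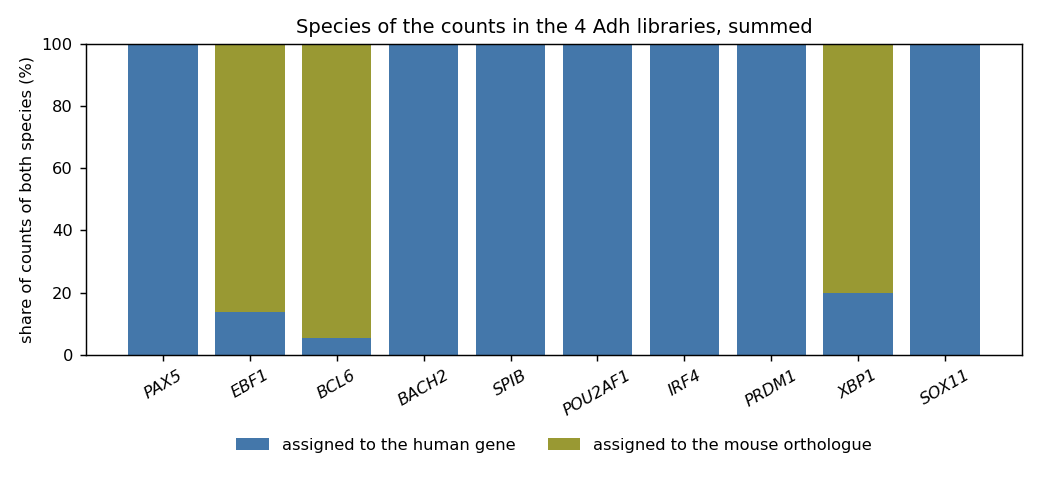
Share of human and mouse counts (%) for each member in the Adh libraries, summed over 4 libraries, with human counts in blue and counts of the mouse orthologue in olive. EBF1, BCL6 and XBP1 are mostly mouse (86.3%, 94.5% and 80.1%), and the other 7 members are human in all but 8 counts.

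Assignment of mouse reads to human genes was measured on genes of the stroma. In the Adh libraries the 10 stromal genes had 746267 mouse counts and 189 human counts, 0.0253% of the mouse number. Without FN1, which had 200 human counts in the Sep libraries, where no stroma was present, there were 14 human counts against 582335 mouse counts (0.00240%). Human EBF1 was at 60.3 CPM in Sep and 63.0 CPM in Adh cells, BCL6 at 5.40 and 4.45 CPM, and XBP1 at 42.3 and 48.2 CPM, so these 3 genes were counted at like levels where no mouse RNA was present. How reads that match both species were treated, and its part in the level of EBF1, was not tested.

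Library Susp replicate 2 stood apart by transcript length. Among 12773 tested genes with a known length, the genes with the longest transcripts (5016 bases or more) lay lower in it than those with the shortest (up to 1840 bases), by a median log2 difference of -0.77 relative to the other Susp libraries. The same value was between -0.17 and 0.28 in the other 11 libraries. Of the 10 members, 6 had their lowest Susp value in this library (PAX5, EBF1, BCL6, BACH2, IRF4 and PRDM1), and SPIB had its highest. PAX5 lay lower there by 0.70 on the log2 scale than in the other Susp libraries, PRDM1 by 0.75 and BCL6 by 0.93, while SOX11, with one of the longest transcripts, differed by 0.02. The cause of this trend was not tested, and log2 fold changes of Susp against Sep cells are given for each member with and without this library. Fits with each library's length trend removed were added after the data were seen. Member values that turned sign in those fits are given with the alternatives at the end.

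**Figure D2:**
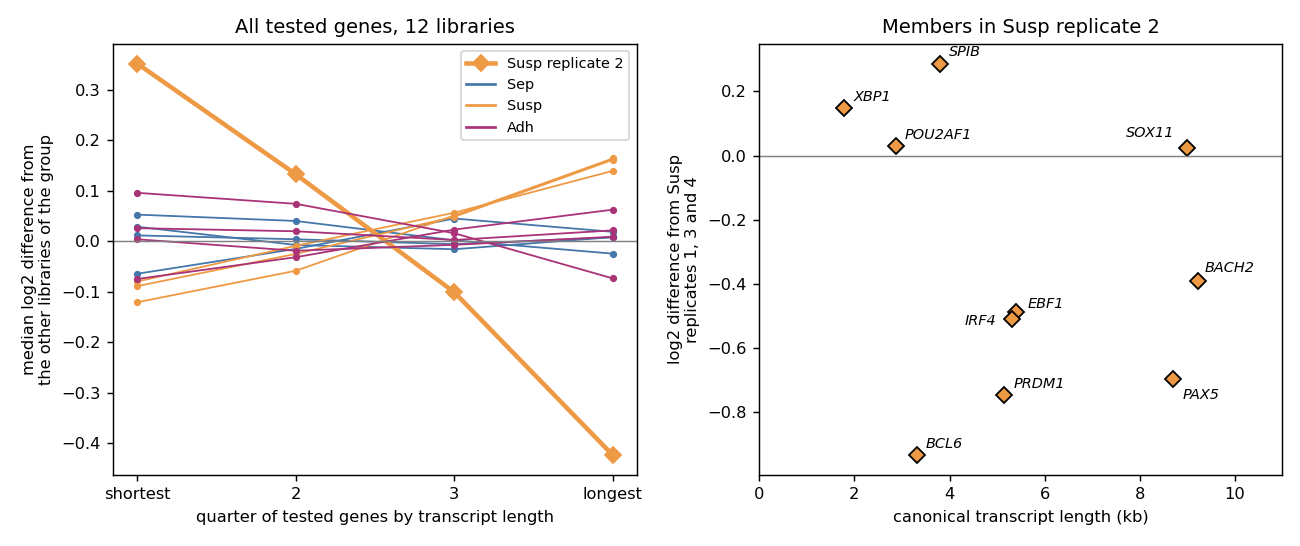
Left, median log2 difference of each library from the other libraries of its group (y) over the tested genes in 4 equal bins of transcript length (x), 1 line for each of 12 REC-1 libraries. Right, the same difference for each member in Susp replicate 2 (y) by canonical transcript length in kb (x). The line of Susp replicate 2 falls from 0.35 to -0.42, and 6 of 10 members lie below 0 in it.

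The members spanned a wide range of levels in REC-1. Per kilobase of exon, over all 12 libraries, PAX5 was highest at 90.4 ± 11.8 RPKM (SD, n = 12), followed by SPIB at 81.9 ± 7.15, POU2AF1 at 58.5 ± 6.68 and IRF4 at 50.4 ± 6.22 RPKM. XBP1 was at 15.0 ± 1.78 RPKM and EBF1 at 9.54 ± 0.94 RPKM. The lowest were SOX11 (2.33 ± 0.36 RPKM), BACH2 (1.16 ± 0.29 RPKM), PRDM1 (1.06 ± 0.19 RPKM) and BCL6 (0.79 ± 0.23 RPKM). PAX5 thus stood at the 97.2nd percentile of tested genes and BCL6 at the 18.6th. Ranges over libraries overlapped between PAX5 and SPIB, POU2AF1 and IRF4, BACH2 and PRDM1, and PRDM1 and BCL6. The ranges therefore do not set the order within these pairs. Both genes of a pair were measured in the same libraries, and their order within each library was not tested. The order also depended on which length was used. With the canonical transcript, which is 2875 bases for POU2AF1 against 6996 bases of all its exons, POU2AF1 ranked first at 142 RPKM, ahead of PAX5 at 99.4 and SPIB at 92.5 RPKM, and BCL6 moved from the tenth place to the eighth. Genes whose exons overlap those of a member, where counted, had at most 7 counts in any REC-1 library. SPIB shares 839 exon bases with a protein-coding gene on the same strand, which had 0 counts. How reads in shared exons were counted, and its part in the level of SPIB, was not tested.

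None of the 10 members changed by the call used (edgeR quasi-likelihood test, Benjamini-Hochberg adjusted p at most 0.05 and fold change at least 1.5) in any comparison. The call was made for 0.731% of tested genes between Susp and Sep, 2.4% between Adh and Sep and 0.778% between Adh and Susp cells, so that 0 of 10 is near the background. At an unadjusted p under 0.05, 3 members stood between Susp and Sep (BACH2, POU2AF1 and IRF4), against 16.7% of tested genes. Between Adh and Sep there were 2 (POU2AF1 and SOX11), against 20.2%, and between Adh and Susp also 2 (SOX11 and BACH2), against 18%. DESeq2 likewise called 0 members, with 3, 2 and 3 at an unadjusted p under 0.05. The median size of the members' log2 fold changes was 0.16, 0.11 and 0.10 in the 3 comparisons, beside 0.18, 0.17 and 0.18 over all tested genes. The 95% interval of the fold change stayed inside 1.5-fold in either direction in all 3 comparisons for 7 of the 10 members. The exceptions were BACH2, BCL6 and SOX11. Among the 7, PRDM1 came close to the limit in Susp against Sep cells, at 1.49-fold. Its log2 fold change there was 0.15, and 0.30 without Susp replicate 2, so its place among the 7 depends on that library being included. In these bulk libraries, fewer cells with a transcript and less of it per cell cannot be told apart. The comparisons with a shared group use the same libraries of that group and are not independent.

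**Figure D3:**
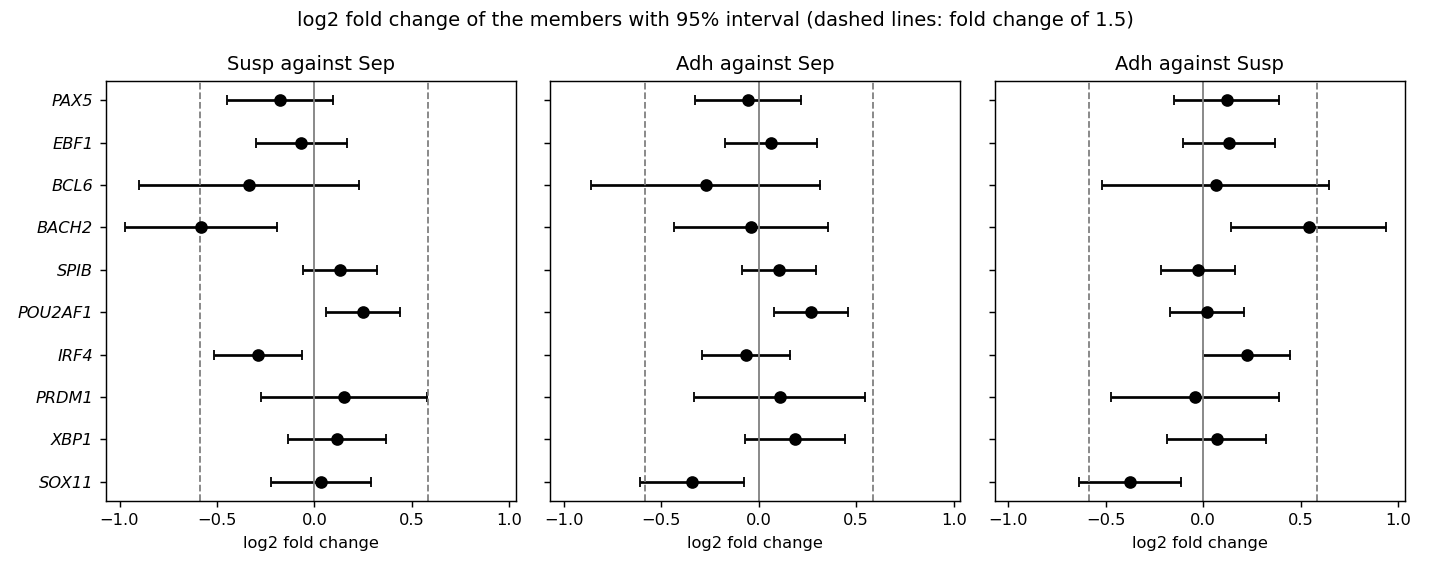
The log2 fold change (x, points) with its 95% interval (bars) for each member in the 3 comparisons, with dashed lines at a fold change of 1.5 in either direction. The intervals of 7 members lie between the dashed lines in every panel, and those of BACH2, BCL6 and SOX11 cross one in at least 1 panel.

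PAX5, the factor without which B lineage commitment is not kept, was at 818, 944, 914 and 969.8 CPM in the Sep libraries. It was at 833, 549.5, 934 and 909.7 CPM in Susp and at 887, 954, 804 and 862 CPM in Adh libraries. Only Susp replicate 2 left the range of 804 to 969.8 CPM held by the other 11 libraries, and the groups overlapped. The log2 fold change was -0.18 (95% interval -0.45 to 0.09, adjusted p = 0.475) in Susp and -0.06 (-0.33 to 0.21, adjusted p = 0.848) in Adh against Sep cells. Without Susp replicate 2 the first was -0.04 (adjusted p = 0.889).

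EBF1, the partner of PAX5 in opening B cell genes, was at 55.8, 57.7, 65.6 and 62.0 CPM in Sep libraries. It was at 62.7, 44.1, 59.9 and 63.3 CPM in Susp and at 63.1, 61.0, 61.0 and 67.0 CPM in Adh libraries. The groups overlapped, and Susp replicate 2 was again the lowest of the 12. The log2 fold change was -0.07 in Susp against Sep (-0.30 to 0.17, adjusted p = 0.764), where the sign turned without Susp replicate 2 (0.03), and 0.06 in Adh against Sep cells (-0.17 to 0.30, adjusted p = 0.794).

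**Figure D4:**
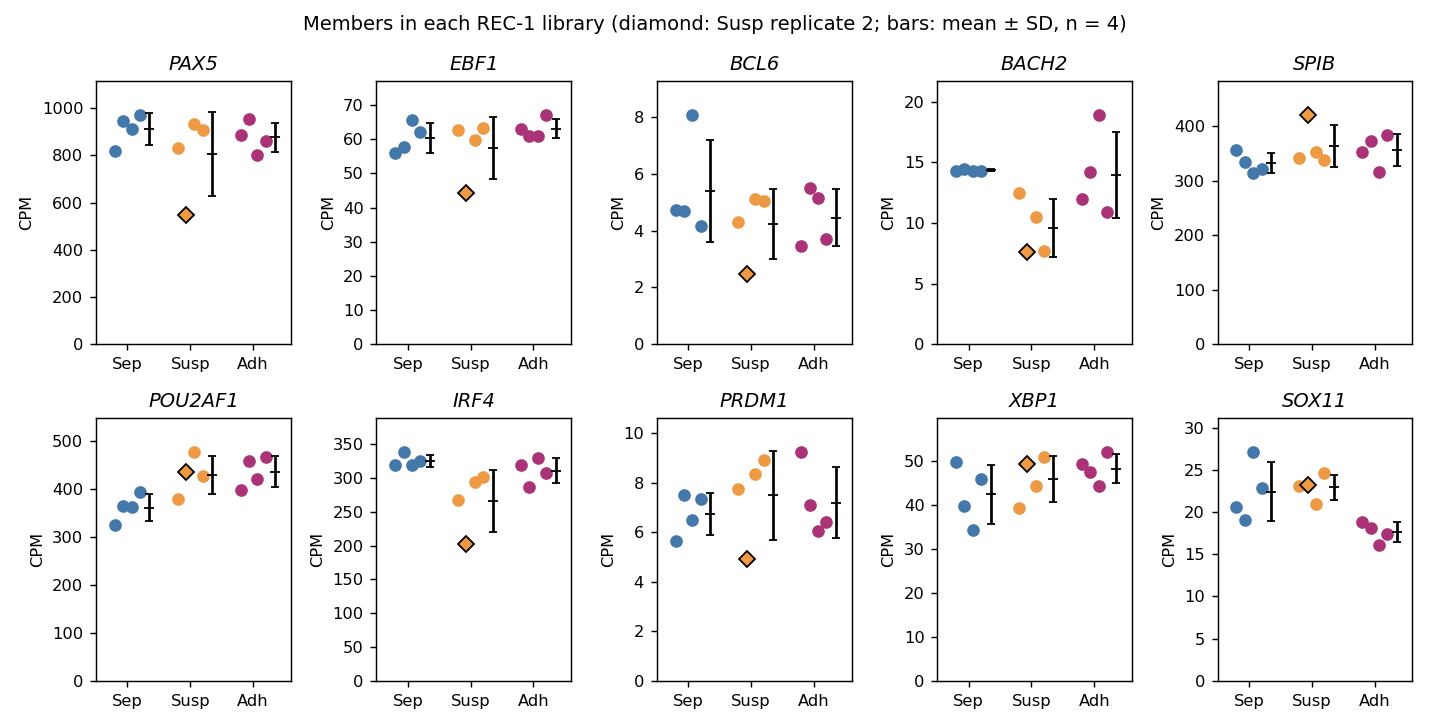
TMM-normalized CPM (y, linear, from 0) of each member in every REC-1 library by group (x), with the mean and SD of 4 libraries as bars and Susp replicate 2 as a diamond. PAX5, EBF1 and IRF4 are lowest in the diamond (549.5, 44.1 and 202 CPM), the 4 Adh libraries of SOX11 lie below all others, and the 4 Susp libraries of BACH2 lie below all Sep libraries.

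BACH2, which restrains PRDM1 and so delays plasma cell differentiation, gave the largest difference among the members. It was at 14.3, 14.5, 14.3 and 14.3 CPM in Sep libraries, at 12.5, 7.62, 10.5 and 7.66 CPM in Susp and at 11.95, 14.3, 18.9 and 10.9 CPM in Adh libraries. All Susp libraries lay below all Sep libraries, while the Adh libraries spread over both. Fitted log2 fold changes were -0.58 in Susp against Sep (-0.97 to -0.19, adjusted p = 0.151), 0.54 in Adh against Susp (0.14 to 0.94, adjusted p = 0.162) and -0.04 in Adh against Sep cells (-0.44 to 0.35, adjusted p = 0.929). Without Susp replicate 2 the first 2 were -0.50 (adjusted p = 0.297) and 0.46 (adjusted p = 0.221). BACH2 and IRF4 were the only members whose Susp and Sep libraries did not overlap, beside 11.3% of tested genes. With 85 to 218 counts per library, BACH2 was among the less deeply counted members.

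IRF4, which at high levels turns activated B cells towards plasma cells, was at 319, 338, 319 and 326 CPM in Sep libraries. It was at 267, 202, 294 and 302 CPM in Susp and at 319.6, 286, 329.7 and 308 CPM in Adh libraries. The Susp libraries were all lower than the Sep libraries, with a log2 fold change of -0.29 (-0.51 to -0.07, adjusted p = 0.204), which was -0.19 (adjusted p = 0.240) without Susp replicate 2. Adh cells overlapped with both groups, at 0.22 against Susp (-0.0006 to 0.45, adjusted p = 0.280) and -0.07 against Sep cells (-0.29 to 0.16, adjusted p = 0.776).

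POU2AF1, the coactivator also known as OCA-B, was at 326, 365, 362 and 395 CPM in Sep libraries. It was at 379.7, 435, 478 and 428 CPM in Susp and at 398, 459, 421 and 467 CPM in Adh libraries. Every Adh library was above every Sep library, and 3 of 4 Susp libraries were too. Fitted log2 fold changes were 0.27 in Adh against Sep (0.08 to 0.46, adjusted p = 0.103), 0.25 in Susp against Sep (0.06 to 0.44, adjusted p = 0.196) and 0.02 in Adh against Susp cells (-0.17 to 0.21, adjusted p = 0.923). Without Susp replicate 2, the difference between Adh and Sep cells had an adjusted p of 0.0250 at the same log2 fold change of 0.27, still under a fold change of 1.5, and the difference between Susp and Sep cells was 0.23 (adjusted p = 0.224).

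SOX11 was at 20.6, 19.1, 27.1 and 22.9 CPM in Sep libraries, at 23.0, 23.2, 20.9 and 24.6 CPM in Susp and at 18.8, 18.1, 16.1 and 17.4 CPM in Adh libraries. The 4 Adh libraries lay below all Sep and all Susp libraries. POU2AF1 and SOX11 were the members without overlap between Adh and Sep cells, beside 15.7% of tested genes, and SOX11 alone was without overlap between Adh and Susp cells, beside 11.4%. SOX11 had a log2 fold change of -0.34 in Adh against Sep (-0.61 to -0.08, adjusted p = 0.134), -0.38 in Adh against Susp (-0.64 to -0.12, adjusted p = 0.141) and 0.03 in Susp against Sep cells (-0.22 to 0.29, adjusted p = 0.900), the last being 0.02 without Susp replicate 2.

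SPIB was at 356, 335, 315 and 322 CPM in Sep, 342, 420.3, 353 and 339 CPM in Susp and 352, 373, 316 and 385 CPM in Adh libraries. The groups overlapped, with log2 fold changes of 0.13 in Susp (adjusted p = 0.454) and 0.10 in Adh (adjusted p = 0.561) against Sep cells, the first being 0.04 without Susp replicate 2. XBP1 was at 49.6, 39.7, 34.3 and 45.8 CPM in Sep, 39.4, 49.4, 44.2 and 50.8 CPM in Susp and 49.3, 47.4, 44.2 and 52.0 CPM in Adh libraries. Its groups overlapped too, with log2 fold changes of 0.12 (-0.14 to 0.37, adjusted p = 0.625) and 0.19 (-0.07 to 0.44, adjusted p = 0.422), the first being 0.07 without Susp replicate 2.

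PRDM1 and BCL6, which repress each other's programmes, were the least abundant members per kilobase of all exons. PRDM1 had 47 to 173 counts per library and was at 5.67 to 7.53 CPM in Sep, 4.92 to 8.93 in Susp and 6.04 to 9.25 in Adh libraries. Its log2 fold change was 0.15 in Susp (-0.28 to 0.58, adjusted p = 0.711) and 0.11 in Adh against Sep cells (-0.33 to 0.55, adjusted p = 0.816), the first being 0.30 without Susp replicate 2. BCL6 had 29 to 106 counts per library and was at 4.15 to 8.06 CPM in Sep, 2.46 to 5.12 in Susp and 3.46 to 5.49 in Adh libraries. The log2 fold change of BCL6 was -0.34 in Susp (-0.90 to 0.23, adjusted p = 0.519) and -0.27 in Adh against Sep cells (-0.86 to 0.32, adjusted p = 0.626). Without Susp replicate 2 the first was -0.16. Both intervals reach past 1.5-fold, so the data do not exclude a change of that size in BCL6. The interval of PRDM1 in Susp against Sep cells ended close to that size, at 1.49-fold, with Susp replicate 2 included.

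Genes on which the members act were counted from lists, by the same call. Over all tested genes, 0.428% rose and 0.303% fell in Susp against Sep, 0.583% and 1.82% in Adh against Sep, and 0.109% and 0.669% in Adh against Susp cells. Of 10 tested targets of PAX5 and EBF1, 1 rose and 2 fell in Susp against Sep cells and 1 fell in Adh against Sep cells. CD72, an inhibitory coreceptor, rose from 22.9 ± 1.46 to 37.8 ± 5.96 CPM (log2 fold change 0.72, adjusted p = 0.00604). CR2, the complement receptor CD21, fell from 184 ± 12.6 to 119 ± 18.0 CPM (-0.63, adjusted p = 0.00550). The log2 fold change of CR2 without Susp replicate 2 was -0.54 (adjusted p = 9.06e-04), which is under a fold change of 1.5. CIITA, the transactivator of MHC class II genes, was at 50.3 ± 11.6 CPM in Sep, 28.6 ± 2.74 in Susp and 26.7 ± 2.52 in Adh cells (SD, n = 4). It fell by 0.82 on the log2 scale in Susp (adjusted p = 0.00749) and by 0.91 in Adh cells (adjusted p = 0.00177). In an alternative added after the data were seen, each library's trend with transcript length was removed. None of the 3 was then called in Susp cells. CD72 (log2 fold change 0.577, adjusted p = 0.00676) and CR2 (-0.583, adjusted p = 7.73e-04) missed only the fold change of 1.5, and narrowly. CIITA was at -0.47 (adjusted p = 0.126) in Susp cells, but stayed called in Adh against Sep cells (-0.70, adjusted p = 0.0105). Median log2 fold changes of this list were 0.04, 0.03 and -0.02 in the 3 comparisons, beside -0.01, -0.003 and -0.01 over all tested genes. CIITA was also the single gene called among 23 tested factors of the B lineage other than the members, in the same 2 comparisons, where the list's medians were -0.12 and -0.02.

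Of 9 tested germinal centre genes, 1 rose and 2 fell in Susp against Sep, 1 fell in Adh against Sep and 1 rose in Adh against Susp cells. MME, which encodes CD10, rose from 12.8 to 18.2 CPM in the Sep libraries to 19.1 to 29.5 CPM in the Susp libraries (log2 fold change 0.70, adjusted p = 0.0280). The call of MME was lost, at adjusted p of 0.0512 to 0.130, without Sep replicate 2, 3 or 4 or Susp replicate 1, 3 or 4, and at 0.0826 with only the compared groups in the model. S1PR2, a receptor that confines cells to the germinal centre, fell in both coculture states (log2 fold changes -1.86 and -1.69, adjusted p = 3.25e-04 and 4.62e-04). RGS13, a regulator of G protein signalling, had its lowest level in suspension, with log2 fold changes of -0.77 in Susp against Sep and 1.13 in Adh against Susp cells. The list's medians were -0.17, 0.01 and 0.12. LMO2 and GCSAM, also on the list, did not pass the filter, with at most 0.51 CPM in any library. Among 8 tested genes that BCL6 is known to repress, CD69, an early activation marker, fell in Susp cells from 33.0 ± 4.68 to 20.6 ± 1.27 CPM (-0.68, adjusted p = 0.0137, and 0.0556 to 0.0592 without Sep replicate 1, Susp replicate 3 or Susp replicate 4), and CD44, a hyaluronan receptor, was higher in Adh than in Susp cells (0.86). The other 6 were not called in any comparison, and the medians were -0.28, 0.13 and 0.19.

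Of 9 tested plasma cell genes, 1 rose in Susp against Sep cells, 1 rose and 1 fell in Adh against Sep cells, and 0 were called between Adh and Susp cells. MZB1, a chaperone of immunoglobulin assembly, was at 54.0 to 69.4 CPM in Sep, 85.4 to 145 CPM in Susp and 82.8 to 104 CPM in Adh libraries. It rose by a log2 fold change of 0.74 (adjusted p = 0.0180) in Susp and 0.59 (adjusted p = 0.0361) in Adh cells, with no overlap with Sep. The call in Susp cells was lost without Susp replicate 2 (0.54, under a fold change of 1.5, adjusted p = 0.00814). It was also lost without Sep replicate 1 or 3 (adjusted p = 0.0624 and 0.0588). The call in Adh cells was lost on leaving out any 1 Sep library or Adh replicate 2, 3 or 4 (adjusted p of 0.0563 to 0.0951). With the length trend removed, MZB1 had log2 fold changes of 0.547 in Susp (adjusted p = 0.00465) and 0.495 in Adh cells (adjusted p = 0.00623). Both were under a fold change of 1.5, so the calls were lost by size and not by adjusted p. DERL3, a factor that removes misfolded proteins from the endoplasmic reticulum, was at 7.40, 7.11, 6.28 and 7.66 CPM in Sep and at 2.86, 1.54, 3.60 and 4.36 CPM in Adh libraries, so that every Adh library was lower. It fell by 1.23 on the log2 scale (adjusted p = 0.0127). The other 7 tested genes of this list, which also holds IRF4, were not called, and the list's medians were -0.10, 0.05 and 0.14. SDC1, which encodes the plasma cell marker CD138, reached at most 0.31 CPM and was not tested.

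None of 14 tested targets of XBP1 in the secretory pathway was called in any comparison, with medians of 0.04, 0.12 and 0.01. HYOU1, an endoplasmic reticulum chaperone and the most abundant of them, had log2 fold changes of 0.14 in Susp and 0.04 in Adh against Sep cells (adjusted p = 0.346 and 0.793), and SSR1, part of the translocon, 0.02 and 0.19 (adjusted p = 0.921 and 0.266). At an unadjusted p under 0.05 there were 1, 4 and 0 genes of this list. None of 6 tested targets of SOX11 was called either, with 3, 1 and 0 at an unadjusted p under 0.05 and medians of 0.06, -0.09 and -0.09. CXCR4, a chemokine receptor, was at 50.5 ± 3.36 CPM in Sep, 41.1 ± 2.06 in Susp and 39.5 ± 4.49 in Adh cells (-0.30 and -0.36, adjusted p = 0.170 and 0.0622), and DBN1, an actin-binding protein, had log2 fold changes of 0.60 and 0.37 (adjusted p = 0.159 and 0.314).

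**Figure D5:**
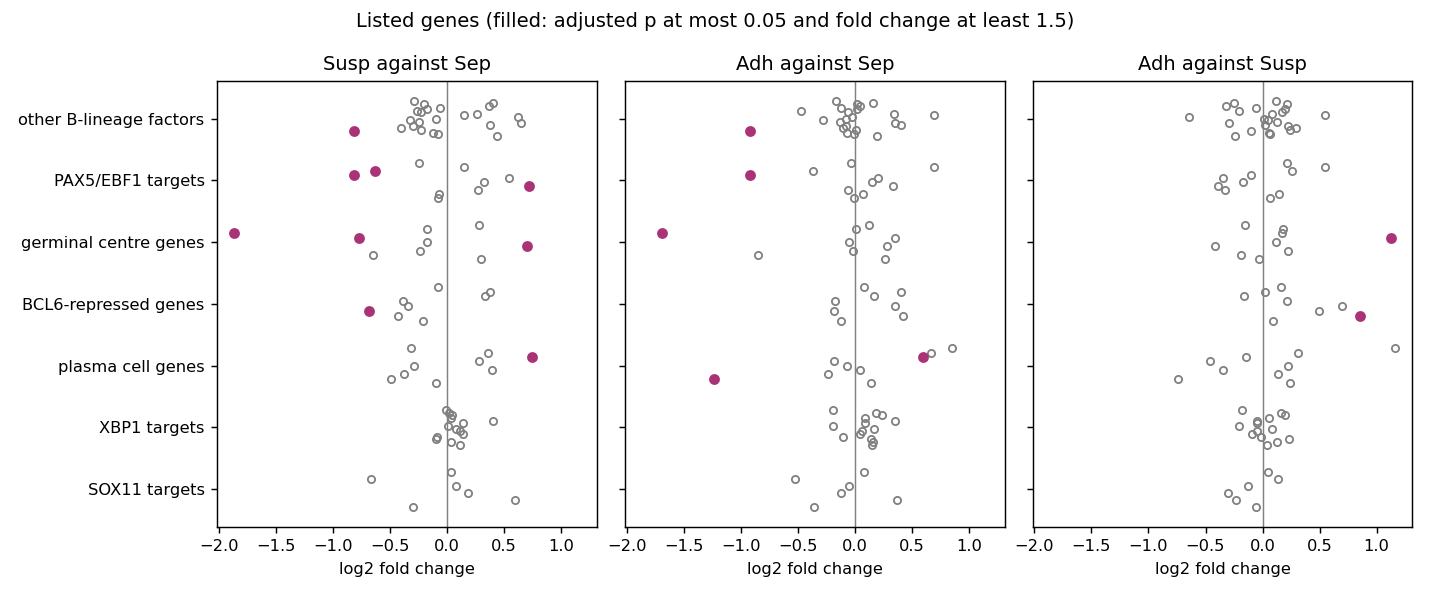
Each tested gene of 7 lists (rows) as a point at its log2 fold change (x) in the 3 comparisons, filled where adjusted p was at most 0.05 and the fold change at least 1.5. Filled points lie on both sides of 0 in 4 rows over the 3 panels, and the rows of XBP1 and SOX11 targets hold none.

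Relatives of the members were compared by family. PAX2 and PAX8, EBF2 and EBF3, and SPIC did not pass the filter, and EBF4, the tested relative of EBF1, was at 0.69 to 0.88 CPM on average in the 3 states. Of 7 tested interferon regulatory factors other than IRF4, only IRF9, part of the interferon-activated complex ISGF3, was called. IRF9 was at 2.13, 5.44, 4.39 and 3.59 CPM in Sep, 2.92, 1.72, 1.69 and 2.89 CPM in Susp and 1.95, 1.06, 0.64 and 0.38 CPM in Adh libraries. All Adh libraries lay below all Sep libraries, with a log2 fold change of -1.83 (adjusted p = 0.0249). Leaving out Sep replicate 2, 3 or 4 or Adh replicate 2, 3 or 4 raised the adjusted p to between 0.0530 and 0.103. IRF9 was near the floor, with at most 65 counts in any library. It dropped out of the alternative that required at least 10 counts in every library. IRF8, the closest relative of IRF4, was at 188 ± 14.6 CPM in Sep, 176 ± 12.3 in Susp and 178 ± 14.7 in Adh cells and was not called, nor were IRF1, IRF2, IRF3, IRF5 and IRF7 (log2 fold changes between -0.29 and 0.25). SPI1 (0.37 and 0.04 in Susp and Adh against Sep cells), BACH1 (-0.14 and 0.07), SOX4 (-0.14 and -0.14) and SOX12 (0.35 and 0.20) were not called. BCL6B, at 1.68 to 2.72 CPM on average, gave -0.69 in Susp cells (adjusted p = 0.265), and PRDM2, PRDM4 and PRDM10 gave -0.23 to -0.14 in both comparisons with Sep cells, with adjusted p of at least 0.175.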

How the data were processed

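RNA-seq of 12 REC-1 and 4 MS-5 libraries was used. Xenome was used by the authors to split the read pairs by species. STAR 2.5.1b aligned them to GRCh38 or GRCm38, and featureCounts (Subread 1.5.2) counted those that mapped uniquely to genes. The deposited values were whole-number counts per gene, neither normalized nor filtered, and 20 columns of other samples were not used. The counting's use of strand is not given in the sources used here.

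Counts were tested in R 4.3.3 with edgeR 4.0.16 (filterByExpr, TMM, glmQLFTest with legacy fitting) in 1 model of 12 libraries. Calls needed p adjusted over 12861 genes (Benjamini-Hochberg) of at most 0.05 together with a 1.5-fold change. The steps were also run on simulated data with a common dispersion for all genes. That simulation had no length trend, no deviating library and no effect of the replicate number, so it does not bear on calls that depend on these. RPKM used the union of exons of GENCODE release 44, and mouse orthologues were matched by symbol. The 10 members and all lists were chosen with earlier results of these data known. Named from a pathway list were up to 4 called genes with the lowest adjusted p, or the 2 most abundant where none was called, and every tested relative. Genes most like a member were to be named where its adjusted p was at most 0.05, which 0 members met. DESeq2 1.42.0, other normalizations and filters, thinning, left-out libraries, a term for the replicate number and 4 alternatives added after seeing the data were tried. The main model did not treat the numbers as pairs, because the labels do not say what they mark. Libraries of the same number deviated together for some numbers only, which does not exclude pairing. Replicates of a group differed beyond sampling noise in all 18 pairs (chi-square per gene 4.18 to 59.6).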

Additional observations from a re-analysis of the deposited data

Results flagged for a closer look

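BCL6 stood at 8.06 CPM in Sep replicate 3, while the other 3 Sep libraries were at 4.15 to 4.72 CPM. The gap exceeded Dixon's 95% critical value for 4 samples. It was 1 of 30 groups examined (10 members in 3 groups), and chance alone marks about 1 in 20 groups.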

How the results depend on the processing

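Across 26 alternatives 0 of 10 members were called in each comparison, and of 780 member values 749 kept their direction and 31 near 0 turned, none past the threshold. POU2AF1 in Adh against Sep cells had an adjusted p of at most 0.05 under 7 alternatives, all below a fold change of 1.5 (adjusted p between 3.4e-04 and 0.232 over all of them). For BACH2 in Susp against Sep cells the same held without the low-count filter (adjusted p = 0.0459, range 0.0459 to 0.334). POU2AF1 in Susp against Sep cells did so under 2 alternatives (range 0.00885 to 0.343), and SOX11 under 1 each in Adh against Sep (0.0484 to 0.411) and Adh against Susp cells (0.0289 to 0.289).

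All-gene counts moved more. Those for Susp against Sep were 94, and 172 with DESeq2 and 217 with no low-count filter. Those for Adh against Sep were 309, and 527 with DESeq2 and 503 with no filter. Those for Adh against Susp were 100, and 282 with DESeq2, 341 with no filter and 162 with the length trend removed. With the replicate number as a block they were 175, 384 and 281, without Susp replicate 2 in addition 144, 680 and 419, and with the length trend removed in addition 178, 517 and 380. Members called under the block numbered 0. Under the block alone, 1 member had an adjusted p of at most 0.05, in Adh against Sep cells. Deviations of libraries with the same number correlated above 0.1 for 1, 3 and 1 of 4 numbers. For replicate 1 the correlations were 0.31, 0.34 and 0.31. These correlations do not settle whether the libraries are paired by number. The study describes Susp and Adh cells as fractions of the cocultures, so libraries of these groups with the same number may be paired. The main model, from which the members' intervals come, leaves out such pairing. Between Adh and Susp cells it called 100 genes, against 281 with the block. Leaving out 1 library from the main model gave 64 to 135, 143 to 519 and 51 to 165 genes. Adh against Sep counts were 490 without Sep replicate 1, 143 without Sep replicate 2, 173 without Sep replicate 4, 519 without Susp replicate 2, 203 without Adh replicate 1 and 192 without Adh replicate 3. Adh against Susp counts were 165 without Sep replicate 1, 66 without Susp replicate 4, 51 without Adh replicate 1 and 62 without Adh replicate 3. The cause was not tested.

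Log2 fold changes that turned sign were all small. With the length trend removed, Susp against Sep gave 0.016 for PAX5 and 0.030 for EBF1, and Adh against Sep gave 0.056 for PAX5 and 0.074 for BACH2. With the replicate block as well, these were 0.018, 0.030, 0.058 and 0.050. With the block and without Susp replicate 2, EBF1 gave 0.014 and SOX11 -0.011 in Susp against Sep, and PAX5 gave -0.039, BCL6 -0.14 and SPIB 0.048 in Adh against Susp. Leaving out 1 library gave, in Susp against Sep, -0.12 to 0.031 for EBF1 and -0.034 to 0.14 for SOX11. In Adh against Sep it gave -0.21 to 0.055 for BACH2 and -0.045 to 0.18 for PRDM1. In Adh against Susp it gave -0.011 to 0.20 for PAX5, -0.11 to 0.18 for BCL6, -0.066 to 0.064 for SPIB, -0.037 to 0.070 for POU2AF1 and -0.20 to 0.049 for PRDM1. Among other cases, EBF1, PAX5, BCL6 and SPIB turned without Susp replicate 2, SOX11 without Sep replicate 2, and BACH2 and PRDM1 (against Sep) without Adh replicate 1.

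The genes named from lists kept direction in all 389 values and lost the call in 39, among them MZB1 in Adh against Sep cells (10 of 26), MME (7) and MZB1 (6) in Susp against Sep cells and IRF9 (6 of 25). BCL6, PRDM1 and BACH2 rest on 29 to 218 counts per library, and the part of depth in their intervals was not tested. Halving all counts, an alternative added after seeing the data, called 0 members and 102, 290 and 109 genes.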
